A study of Mus musculus with 33 samples.

Results

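The comparison set the mouse uterus at day 6 after fertilization against the uterus of non-pregnant mice. Its members were the 6 arrays whose columns carry the day 6 label and the 6 arrays whose columns carry the control label in the deposited table of raw intensities, 12 of the 33 arrays of the series. All mice were C57BL/6, an inbred laboratory strain, at 8 weeks of age, and no allele or agent is given for any group. Day 4 (4 arrays) and day 8 (4 arrays) served as the neighbouring time points, and days 10, 11 and 12 (4, 4 and 5 arrays) only where stated. Each array is a single-colour Illumina bead array of total RNA. The labels describe the pregnant tissue as uterine microenvironment and give no dissection, so the part of the uterine wall, any embryo and the share of each cell type are not known. Whether each array holds its own animal is not given, so the p-values measure only the spread between these samples, which may be technical. Precision is limited by how few arrays each group has.

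In the mouse, the blastocyst attaches to the uterine epithelium a few days after mating, and the stromal cells beneath it then divide and turn into decidua, a secretory tissue that surrounds the embryo until the placenta works. Progesterone drives this change on a background of oestrogen, through signals that pass between epithelium and stroma. Decidual cells make hormones of the prolactin family, are coupled by gap junctions and are often polyploid, while the epithelium around the embryo is lost and new vessels form.

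The level of a gene below is its normalized intensity on the log2 scale, and a difference is the day 6 mean minus the non-pregnant mean on that scale, with its standard error (SE), so that 1 unit is a 2-fold difference. Levels are compared between arrays and never between genes. A gene given with a difference or as at least N-fold passed an adjusted p of 0.05 unless stated. 4 arrays stood apart from their groups. On non-pregnant replicate 4 and day 6 replicate 4, 13097 and 13149 probes were detected, against 16561 to 18152 on the other 10 arrays. Non-pregnant replicate 6 and day 6 replicate 5 differed from their groups on genes that oestrogen controls in the epithelium, as given below. Results that rest on these arrays are given with and without them. The defining markers of uterine smooth muscle (Acta2, Myh11) and of epithelium (Krt8, Cdh1) were detected on all 12 arrays. Of the markers of decidua, Wnt4 was detected on all 12 arrays and Prl8a2 on 6 of 6 day 6 arrays and on no non-pregnant array.

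Of 10412 genes tested, 1337 (12.8%) changed, meaning an adjusted p under 0.05 in limma and at least a 2-fold difference. Of these, 680 (6.53%) were higher and 657 (6.31%) lower at day 6. The counts leaned upward as the fold grew. At 4-fold or more, 191 genes were higher and 128 lower (59.9% higher), and at 8-fold or more 59 were higher and 23 lower. At 32-fold or more, 13 were higher and 5 lower. No non-pregnant array detected 81 of the changed genes, and no day 6 array detected 71 of them. For 790 genes (7.59%) every day 6 array lay above every non-pregnant array, and for 454 genes (4.36%) every day 6 array lay below. Without background correction 582 genes changed, and without the 4 arrays that stood apart, an alternative chosen after the data were seen, 1608 did. In bulk tissue, more or fewer cells of a type cannot be told apart from more or less RNA of its genes per cell.

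**Figure D1:**
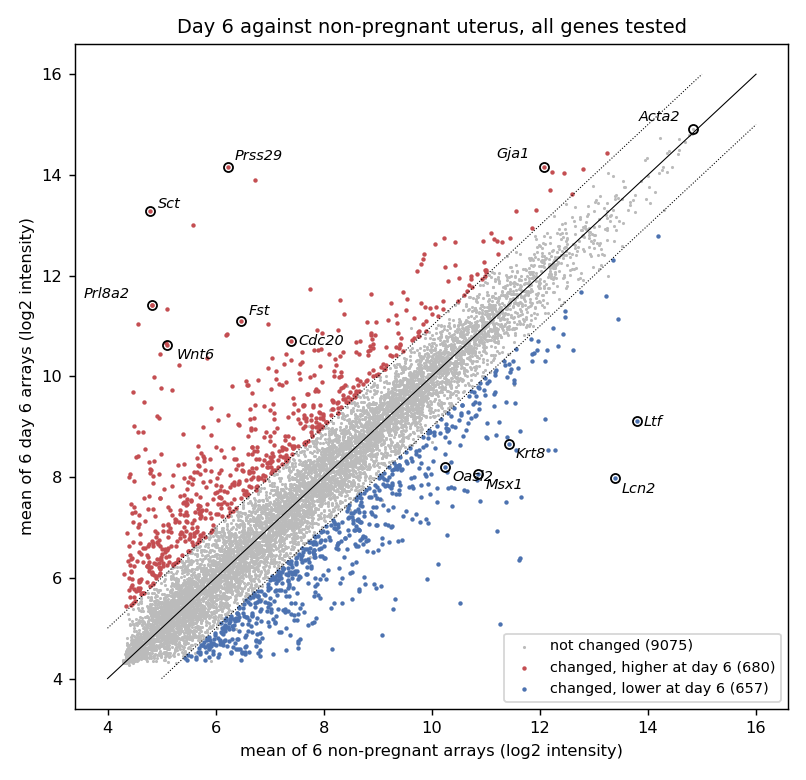
Mean level of each gene tested on the 6 non-pregnant arrays (x axis, log2 intensity) and the 6 day 6 arrays (y axis, log2 intensity). The solid line marks equal means and the dotted lines 2-fold differences, with 680 genes higher in red, 657 lower in blue and the rest grey. Sct, Prss29 and Prl8a2 sit far above the line at low non-pregnant levels, and Ltf and Lcn2 far below it at high non-pregnant levels.

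Several of the largest differences upward belonged to secreted peptides and hormones of decidua. Secretin (Sct), a peptide hormone best known from the gut, ranged from 4.34 to 6.14 with a median of 4.57 on the non-pregnant arrays and from 12.89 to 14.08 with a median of 13.16 on the day 6 arrays, a difference of 8.48 (SE 0.31, adjusted p = 6.35e-20). Prl8a2, the decidual prolactin-related protein, ranged from 4.57 to 5.80 with a median of 4.61 without detection on any non-pregnant array and from 11.00 to 11.98 with a median of 11.25 at day 6, at least 71.6-fold higher. Tac2, the precursor of neurokinin B, ranged from 4.33 to 6.83 with a median of 4.41 and from 11.20 to 11.73 with a median of 11.33, a difference of 6.59 (SE 0.29, adjusted p = 7.05e-18). In all 3 the groups were wide apart, and the highest non-pregnant value of Sct and Tac2 was that of replicate 6. Npy, neuropeptide Y, differed by 5.47 (SE 0.26) and Nppa, the atrial natriuretic peptide, by 4.24 (SE 0.19). Drd4, a dopamine receptor, was undetected on the non-pregnant arrays and at least 55.01-fold higher at day 6. Prl3c1, another hormone of the prolactin family, was at least 5.07-fold higher. Members of the prolactin-like, Sprr2 and Oas families, and Prss28 and Prss29, resemble each other in sequence and can share probe signal, so which member a probe reports is uncertain.

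Of 17 measured genes on the list of decidual hormones, peptides and their receptors, 8 rose, 4 fell and 5 did not pass, with a median difference of 0.33. Over all genes 19.9% passed the adjusted p upward and 18.9% downward, with a median of -0.01. The 8 that rose were the 7 genes named above and Galr2, a galanin receptor, at 1.40. Those that fell were Edn1, the vasoconstrictor endothelin 1, at -1.78, the natriuretic peptide receptors Npr2 at -0.73 and Npr3 at -0.96, and Ramp3, a receptor-modifying protein, at -1.05. The call on Ramp3 was lost without non-pregnant replicate 1, 2, 3 or 5 or day 6 replicate 1, 4 or 6, at -1.03 to -0.81, and that on Npr3 without non-pregnant replicate 4, at -0.59. The Npr3 call was also lost without both replicates 4, at -0.66, and in the fit of only the 2 groups compared. These 5 genes fall outside the rule for named genes and were named after their values were seen. The other 7 of the 12 largest rises without overlap lay outside this list. Among them, Krtdap, a secreted protein of differentiating keratinocytes, was higher by 5.58 (SE 0.41), and Tnnc1, troponin C of slow and cardiac muscle, by 4.90 (SE 0.21).

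**Figure D2:**
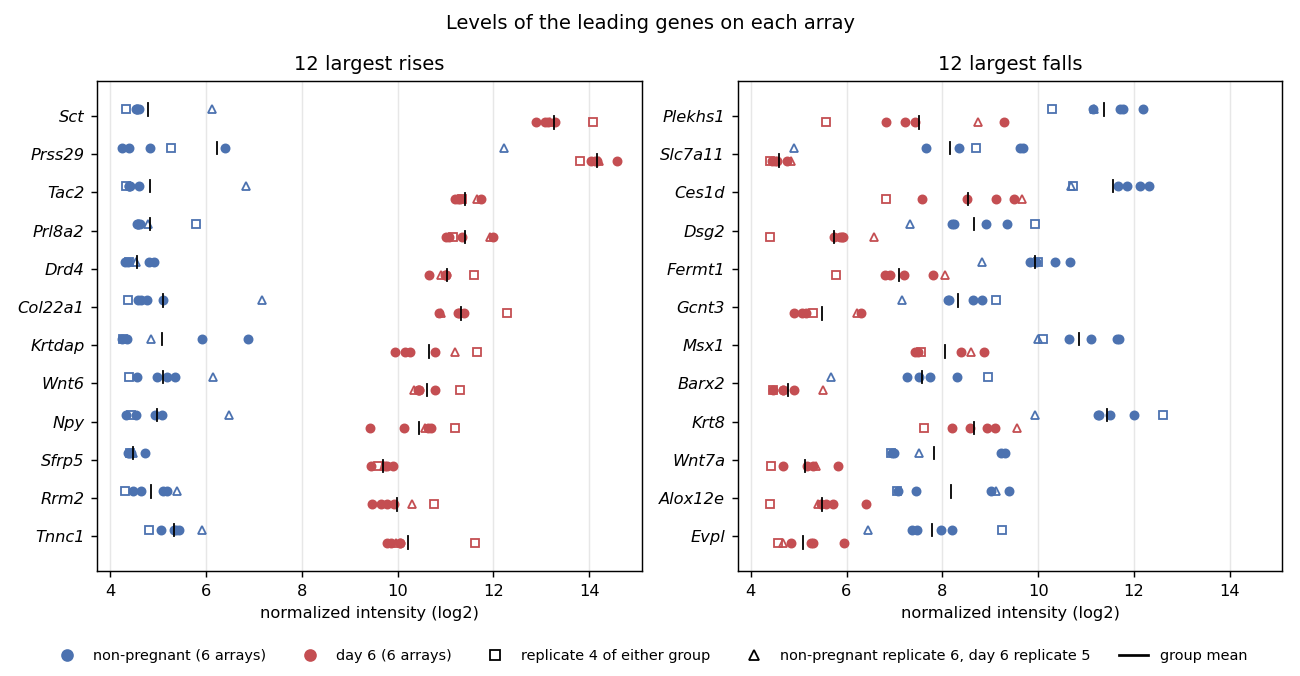
Level on each of the 12 arrays (x axis, log2 intensity) for the 12 largest rises and the 12 largest falls among changed genes whose groups do not overlap. Filled circles are arrays, open squares replicate 4 of either group, open triangles non-pregnant replicate 6 and day 6 replicate 5, and black bars group means. Most rising genes sit near 4 to 6 on the non-pregnant arrays, where few were detected, and Prss29 on non-pregnant replicate 6 lies at 12.23.

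Signals of the Wnt, bone morphogenetic protein (BMP) and activin families changed in both directions. Wnt6, a secreted ligand, ranged from 4.39 to 6.14 with a median of 5.09 on the non-pregnant arrays and from 10.34 to 11.31 with a median of 10.45 at day 6, and differed by 5.52 (SE 0.22, adjusted p = 1.02e-18). Sfrp5, a secreted Wnt antagonist, was at least 21.8-fold higher and Wnt10a at least 8.91-fold higher, both undetected on every non-pregnant array. Bmp2, a ligand required for decidua formation in mice, reached day 6 levels of 4.57 to 6.98 with a median of 6.27 and was detected on 5 of 6 arrays there and on no non-pregnant array, at least 1.76-fold higher (adjusted p = 1.34e-07). Follistatin (Fst), which binds activin, differed by 4.64 (SE 0.49), and by 5.22 without non-pregnant replicate 6, where it lay at 9.38 against 5.18 to 6.37 on the other 5. Wnt4, which stromal cells need to become decidua in mice, ranged from 5.38 to 9.38 with a median of 8.74 and from 9.64 to 10.94 with a median of 9.97. Its difference of 1.77 (SE 0.41) was 1.18 without non-pregnant replicate 6, the lowest array, and 1.00 without the 4 arrays that stood apart, and passed in both. Wnt7a, an epithelial ligand, fell by 2.69 (SE 0.32), with each day 6 array below each non-pregnant array. Of the 42 measured members of this list, 17 rose, 8 fell and 17 did not pass (median 0.14).

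Transcription factors of the receptive and decidual uterus changed in both directions, 12 of 42 risen, 13 fallen and 17 not passing (median -0.07), and 9 risen and 7 fallen with median scaling. Hand2, a stromal factor under progesterone control, differed by 2.03 (SE 0.25, adjusted p = 9.97e-08) and Klf5 by 1.78 (SE 0.18), both without overlap between the groups. Epas1, the hypoxia-inducible factor 2 alpha, was higher by 1.74 (SE 0.20) and Foxm1, a factor of mitotic gene expression, by 1.98 (SE 0.13). Cebpb, a factor needed for decidua formation in mice, was higher by 1.02 (SE 0.24). Msx1, a homeobox factor of the receptive uterus, ranged from 9.99 to 11.68 with a median of 10.87 on the non-pregnant arrays and from 7.43 to 8.86 with a median of 7.98 at day 6, a difference of -2.81 (SE 0.28, adjusted p = 1.68e-09) without overlap. Bhlhe40, a basic helix-loop-helix repressor, was at -1.91 (SE 0.44). Foxo1, a factor of decidual cells, differed by -0.13 (SE 0.15, adjusted p = 0.525), which did not pass. Hoxa10, a homeobox factor of stroma, was higher by 0.79 (SE 0.26, adjusted p = 0.0176), a call lost on leaving out any one of non-pregnant replicate 5 (0.67), day 6 replicate 5 (0.65) or day 6 replicate 6 (0.68), and with median scaling. The fit of only the 2 groups compared also lost it. Hoxa11, another homeobox factor of stroma, was higher by 0.96 (adjusted p = 0.00945). It was detected on 3 non-pregnant and 6 day 6 arrays, and its dependence on the settings was not examined.

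Of 22 steroid receptors and enzymes 6 rose, 3 fell and 13 did not pass (median 0.04), a share near the 38.8% of all genes that passed. Without non-pregnant replicate 6 and day 6 replicate 5, 6 rose and 5 fell. Cyp11a1, which makes pregnenolone from cholesterol, was undetected on all 6 non-pregnant arrays and ranged from 7.54 to 8.52 with a median of 7.88 at day 6, at least 6.41-fold higher (adjusted p = 9.04e-19). Hsd17b1, which makes oestradiol from oestrone, was higher by 2.74 (SE 0.19), and Hsd17b7, an enzyme of oestradiol and cholesterol synthesis, by 1.79 (SE 0.23). The progesterone receptor Pgr ranged from 5.74 to 7.17 with a median of 6.56 and from 7.04 to 7.57 with a median of 7.34, with groups that overlapped slightly and a difference of 0.80 (SE 0.18, adjusted p = 0.000752), which did not pass with median scaling in place of quantile normalization. Fkbp5, a chaperone of steroid receptors, was higher by 1.75 (SE 0.33). The oestrogen receptor Esr1 differed by -0.29 (SE 0.32, adjusted p = 0.493) and Hsd11b2, which inactivates glucocorticoid, by 0.12 (SE 0.40, adjusted p = 0.849), and neither passed. Hsd11b2 was at 1.11 (adjusted p = 0.00487) without the 4 arrays that stood apart.

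Among implantation signals, 5 of 20 rose, 6 fell and 9 did not pass (median -0.17). Interleukin 11 (Il11), whose receptor decidua needs in mice, was undetected on every non-pregnant array, ranged from 6.75 to 8.19 with a median of 7.48 at day 6 and was at least 4.44-fold higher. Leukaemia inhibitory factor (Lif), the gland signal of attachment, was detected on 3 non-pregnant arrays and on no day 6 array, and was at least 1.15-fold lower (adjusted p = 0.00321). Hbegf and Ihh, an epidermal growth factor ligand and a hedgehog ligand of the attachment period, did not pass (adjusted p = 0.0626 and 0.397). Ihh was at -0.48, and at -1.54 (adjusted p = 0.000118) with array weights, the only alternative in which it passed. Hbegf was at -0.49 and passed without non-pregnant replicate 6, at -0.70, and without day 6 replicate 4, at -0.60. It also passed with the replicate block, with array weights, with cyclic loess and without each set of arrays that stood apart, down to -0.81 without all 4. Itga5, an integrin chain that binds fibronectin, was higher by 1.68 (SE 0.28) and Ptn, the growth factor pleiotrophin, by 1.74 (SE 0.21). Faah, which breaks down the endocannabinoid anandamide, fell by 2.34 (SE 0.24) without overlap. In the prostaglandin list 3 of 14 rose, 4 fell and 7 did not pass (median -0.37). Ptges, a prostaglandin E synthase, was higher by 2.46 (SE 0.22), and Alox12e, an epidermal lipoxygenase, was at -2.69 (SE 0.41). Nppc, Ptgs1 and Ptgs2 were not analysed here.

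Of 20 retinoid genes 8 rose, 3 fell and 9 did not pass (median 0.25). Without background correction and from the series matrix 4 rose and 3 fell, and with median scaling 4 and 2. Stra6, the cell-surface receptor for retinol and its carrier, ranged from 4.81 to 7.90 with a median of 6.22 on the non-pregnant arrays and from 9.07 to 10.67 with a median of 9.77 at day 6, a difference of 3.51 (SE 0.46, adjusted p = 3.09e-07). Lrat, which stores retinol as esters, was higher by 2.35 (SE 0.35), and Aldh1a1, which makes retinoic acid, was undetected on every day 6 array and at least 1.77-fold lower. Cyp26a1, which degrades retinoic acid, was higher by 1.54 (SE 0.53, adjusted p = 0.0223). The call depended on the processing and on single arrays. It was lost without background correction, at 0.55, and from the series matrix, at 0.54. It was also lost in the fit of only the 2 groups compared and with non-pregnant replicates 2 and 3 averaged. Non-pregnant replicate 6 lay at 8.83 against 4.38 to 4.83 on the other 5. The difference was 2.24 without it, and the call was lost without non-pregnant replicate 1, 2 or 3 or day 6 replicate 2, at 1.22 to 1.39.

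Genes of cell division rose together. All 39 measured mitotic kinase and spindle genes rose, with a median of 2.00, and in 34 of them every day 6 array lay above every non-pregnant array. Kif2c, a kinesin that depolymerizes spindle microtubules, ranged from 4.96 to 6.74 with a median of 6.06 and from 8.95 to 10.03 with a median of 9.36, a difference of 3.45 (SE 0.22, adjusted p = 5.48e-14). Cdk1, the kinase that starts mitosis, was higher by 3.00 (SE 0.22), and Plk1, another mitotic kinase, by 2.99 (SE 0.16). The list mean, set against the mean of each gene over the 12 arrays, ran from -1.42 to -0.67 on the non-pregnant arrays and from 0.78 to 1.24 at day 6, so no array crossed between the groups. Without the 4 arrays that stood apart 38 rose.

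Promoters of this list were read because so many of its members moved together. Many genes of late cell cycle carry a CCAAT box and a cell cycle homology region (CHR) near their start. The windows came from RefSeq on GRCm38.p6 and covered 250 bases before and 50 after a gene's start, with 34 of the 39 genes matched. CCAAT was found in 22 of the 34 (64.7%), a CHR written as TTTGAA or TTCGAA in 27 (79.4%) and both in 21 (61.8%), on either strand. In the 8399 tested genes with a window the shares were 42.4%, 16.2% and 6.73%, and over all 27025 genes with a window 41.1%, 21.7% and 8.61%. A match describes the letters only and is not a bound site. The windows of Cdc20, which starts the exit from mitosis, and of the mitotic kinase Aurka are shown as the members with both motifs and the largest differences among named genes, 3.30 and 3.24. Capitals mark CCAAT and CHR matches on the strand shown, 5′ to 3′.
Cdc20, chr4:118437294-118437593, minus strand: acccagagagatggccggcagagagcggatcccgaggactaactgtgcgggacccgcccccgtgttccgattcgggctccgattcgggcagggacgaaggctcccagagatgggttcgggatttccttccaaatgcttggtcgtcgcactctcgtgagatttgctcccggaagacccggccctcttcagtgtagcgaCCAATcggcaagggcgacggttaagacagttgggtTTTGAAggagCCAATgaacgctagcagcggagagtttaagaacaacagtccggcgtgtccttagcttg
Aurka, chr2:172370521-172370820, minus strand: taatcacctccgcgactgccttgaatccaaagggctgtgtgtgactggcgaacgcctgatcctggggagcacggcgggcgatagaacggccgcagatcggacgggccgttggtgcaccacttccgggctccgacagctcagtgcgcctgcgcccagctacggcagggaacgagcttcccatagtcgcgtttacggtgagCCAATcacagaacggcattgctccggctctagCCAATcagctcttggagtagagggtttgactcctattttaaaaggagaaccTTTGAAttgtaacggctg
In Cdc20 the CHR begins at position -18 from the start, between CCAAT boxes that begin at -53 and -8. In Aurka the CCAAT boxes begin at -51 and -19 and the CHR at position 33.

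DNA replication genes followed, 34 of 36 risen and 2 not passing (median 1.30). Rrm2, the small subunit of the enzyme that makes deoxynucleotides, ranged from 4.32 to 5.40 with a median of 4.88 on the non-pregnant arrays and from 9.47 to 10.76 with a median of 9.86 at day 6, a difference of 5.13 (SE 0.18, adjusted p = 1.77e-20). Its partner Rrm1 was higher by 2.62 (SE 0.20), thymidine kinase Tk1 by 2.72 (SE 0.23) and the replication initiator Mcm10 by 2.71 (SE 0.27). The 2 that did not pass were Mcm7, a helicase subunit, at 0.58 (SE 0.29, adjusted p = 0.118) and Pcna, the sliding clamp, at 0.43 (SE 0.29, adjusted p = 0.254), and Mcm7 passed without non-pregnant replicate 2, at 0.73. Pcna ranged from 4.65 to 5.70 on the non-pregnant arrays and from 4.53 to 6.04 at day 6. These levels are near background, where a difference could be missed. Of the G1 cyclins, kinase inhibitors and E2F factors, 17 of 27 rose, 4 fell and 6 did not pass (median 0.60), and with median scaling 10 rose and 0 fell. E2f1, which switches on replication genes, was higher by 1.96 (SE 0.24), and Ccnd3, the cyclin linked to polyploidy of decidual cells in mice, by 1.02 (SE 0.18). Ccne1, cyclin E1, was undetected on every non-pregnant array and at least 1.61-fold higher. The inhibitor Cdkn1a differed by 0.28 (SE 0.24, adjusted p = 0.362), which did not pass.

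Of 23 cholesterol genes 14 rose, 1 fell and 8 did not pass (median 0.66), and Sqle, which makes squalene epoxide, ranged from 6.87 to 8.61 with a median of 7.82 and from 9.39 to 10.03 with a median of 9.82, a difference of 1.89 (SE 0.27, adjusted p = 1.88e-06). Of 24 chaperones of the endoplasmic reticulum and unfolded protein genes 14 rose, 2 fell and 8 did not pass (median 0.54), and with median scaling 9 rose and 1 fell. Among the rising was the disulfide isomerase Pdia6 at 1.44 (SE 0.18). Of 29 amino acid and polyamine genes 13 rose, 4 fell and 12 did not pass (median 0.32). Slc6a12, a betaine and GABA transporter, was undetected on every non-pregnant array and at least 18.8-fold higher. Ass1, an enzyme that makes arginine precursor, was higher by 3.99 (SE 0.48), and Tdo2, which opens tryptophan on the kynurenine path, at least 2.6-fold. Slc7a11, the cystine and glutamate exchanger, was undetected on every day 6 array and at least 7.09-fold lower. Its fitted difference of -3.57 went to -4.23 without non-pregnant replicate 6, its lowest array. Of 25 glucose and glycolysis genes 7 rose, 2 fell and 16 did not pass (median -0.01), a share near the 38.8% of all genes that passed. With median scaling 4 rose and 1 fell, and without both dim arrays 11 and 2. The glucose transporter Slc2a1 ranged from 8.97 to 10.87 with a median of 10.35 and from 12.45 to 12.82 with a median of 12.60, a difference of 2.57 (SE 0.27, adjusted p = 4.56e-09).

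**Figure D3:**
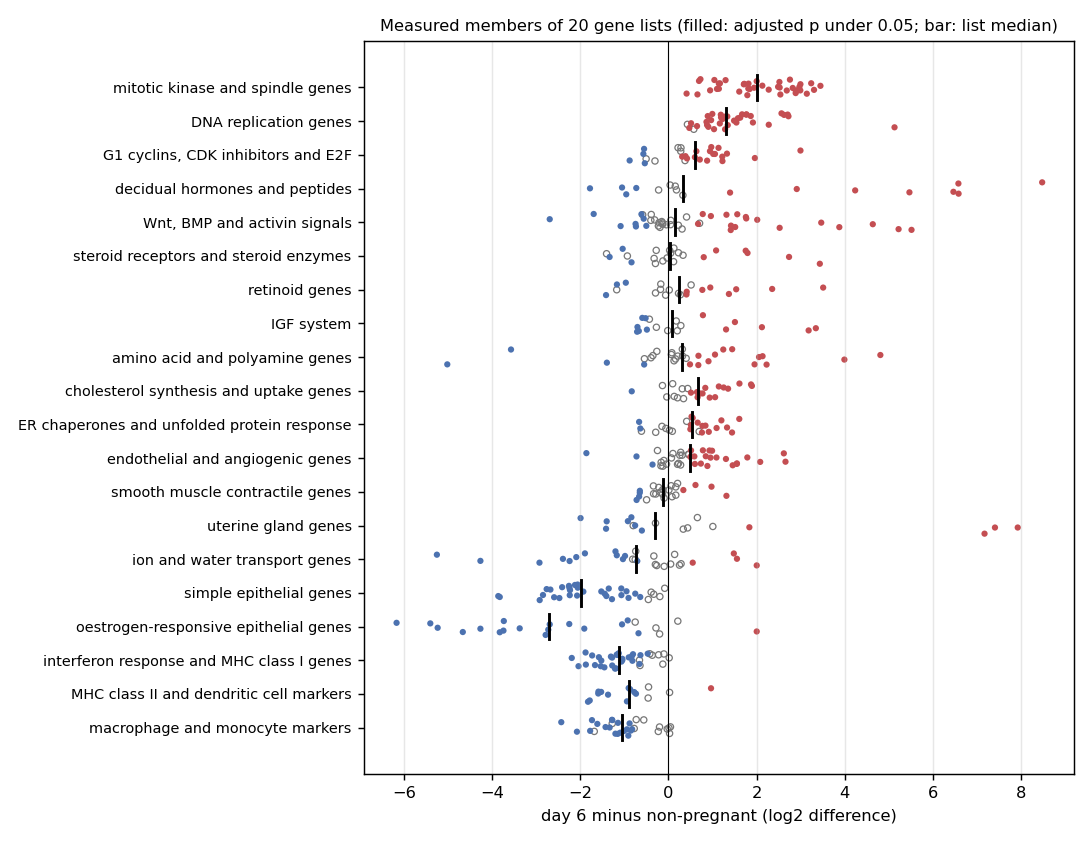
Difference between day 6 and non-pregnant uterus (x axis, log2) for each measured member of 20 gene lists. Filled points passed an adjusted p of 0.05 (red higher, blue lower), open points did not, and the black bar is the list median, which runs from 2.00 for mitotic genes to -2.71 for oestrogen-responsive epithelial genes.

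Of 7 measured connexins, which form gap junctions, 3 rose, 2 fell and 2 did not pass (median 0.28), and 1 rose with median scaling. Gja1, the main connexin of decidual cells, ranged from 11.66 to 12.65 with a median of 12.00 on the non-pregnant arrays and from 13.90 to 14.63 with a median of 14.11 at day 6, a difference of 2.08 (SE 0.16, adjusted p = 3.26e-12) without overlap. Gjb2, a connexin of epithelium, was at -2.22 (SE 0.60), and at -2.82 without non-pregnant replicate 6. Of 30 collagen chains 9 rose, 2 fell and 19 did not pass (median 0.28), a share near the 38.8% of all genes that passed. Leaving out non-pregnant replicate 6 and day 6 replicate 5, 15 of 29 rose. Without both dim arrays 9 rose and 4 fell. Col22a1, a collagen of tissue junctions, ranged from 4.37 to 7.17 with a median of 4.70 and from 10.87 to 12.28 with a median of 11.27, a difference of 6.22 (SE 0.37, adjusted p = 2.07e-14). Col1a1, the main fibrillar chain, was higher by 1.29 (SE 0.23). Among elastic fibre and other matrix genes 13 of 36 rose, 10 fell and 13 did not pass (median 0.15), and with median scaling 9 rose and 4 fell. Lama1, a laminin chain of basement membranes, was higher by 3.23 (SE 0.24), and elastin (Eln) by 2.25 (SE 0.31). Of 32 matrix proteases and inhibitors 8 rose, 11 fell and 13 did not pass (median -0.12), while with median scaling 7 rose and 4 fell. The inhibitor Timp1 was at 2.10 (SE 0.16) and the protease Adamts9 1.98 (SE 0.19).

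In the insulin-like growth factor list, 6 of 18 rose, 6 fell and 6 did not pass (median 0.08), and with median scaling 6 rose and 0 fell. Dlk1, a Notch-like membrane protein, was higher by 3.35 (SE 0.17), and the binding proteins Igfbp2 and Igfbp4 by 3.18 (SE 0.28) and 1.51 (SE 0.20). Endothelial and angiogenic genes rose in 20 of 39 cases, fell in 3 and did not pass in 16 (median 0.50), and with median scaling 13 rose and 1 fell. Angpt2, an antagonist ligand of the Tie2 receptor, ranged from 7.65 to 9.06 with a median of 8.13 and from 10.61 to 11.47 with a median of 10.81, a difference of 2.66 (SE 0.19, adjusted p = 1.24e-12). Its relative Angpt4 was higher by 2.62 (SE 0.31) and the receptor Notch4 by 2.08 (SE 0.18). Sox7, a transcription factor of endothelium, was at -1.86 (SE 0.26). Vegfa and its receptor Kdr, which drive vessel growth, differed by -0.13 (SE 0.24) and 0.07 (SE 0.17), and neither passed. Kdr was detected on only 4 non-pregnant and 2 day 6 arrays, with means of 5.13 and 5.19 near background, where a difference could be missed. Of the other defining markers of endothelium, Cdh5 was higher by 1.79 and Pecam1 by 0.74, while Tek, at 0.28, did not pass. Without the 4 arrays that stood apart Vegfa was at -0.64 (adjusted p = 0.0376). The list mean of non-pregnant replicate 6 was 0.23, within the day 6 range of 0.21 to 0.47, while the other 5 non-pregnant arrays lay from -0.60 to -0.32.

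Of 23 contractile genes of smooth muscle 4 rose, 4 fell and 15 did not pass (median -0.13), a share near the 38.8% of all genes that passed. With median scaling 3 rose and 2 fell. Acta2, smooth muscle actin, ranged from 14.66 to 15.07 with a median of 14.83 and from 14.78 to 15.07 with a median of 14.93, overlapping throughout. This probe lies near the top of the intensity range. Of its 3 further probes 1 differed by 0.09 and the others by -0.68 and -0.76, and none passed. Myh11, smooth muscle myosin, differed by -0.50 (SE 0.26, adjusted p = 0.126). Desmin (Des), an intermediate filament that decidual cells also make, was higher by 1.32 (SE 0.18). Of the other smooth muscle markers, Actg2 was higher by 0.61 (adjusted p = 0.0113), while Cnn1, at 0.17 (adjusted p = 0.630), did not pass. On both dim arrays the list mean was high. It stood at 0.86 in the non-pregnant group, whose other 5 arrays ran from -0.46 to -0.04, and at 0.65 in the day 6 group, whose others ran from -0.29 to -0.08.

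Epithelial genes fell as a group. Of 34 measured genes of simple epithelium 29 fell, none rose and 5 did not pass (median -2.0), and in 20 of them every day 6 array lay below every non-pregnant array. Krt8, a keratin of simple epithelium, ranged from 9.92 to 12.60 with a median of 11.38 on the non-pregnant arrays and from 7.61 to 9.55 with a median of 8.76 at day 6, a difference of -2.76 (SE 0.34, adjusted p = 1.34e-07). The adhesion molecule Cdh1, E-cadherin, ranged from 8.27 to 10.32 with a median of 8.90 and from 6.52 to 7.74 with a median of 7.11, a difference of -2.07 (SE 0.29, adjusted p = 8.23e-07). Both were detected on all 12 arrays, so the epithelial signal was lower but present at day 6. Dsg2, a desmosomal cadherin, was at -2.92 (SE 0.35), Evpl, a cornified envelope protein, at -2.68 (SE 0.38), and Gcnt3, a mucin glycosyltransferase, at -2.84 (SE 0.24). Barx2, a homeobox factor, was at -2.79 (SE 0.32) and the carboxylesterase Ces1d at -3.03 (SE 0.38). Without the 4 arrays that stood apart, 28 of 34 fell.

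Of 22 genes that oestrogen raises in uterine epithelium 17 fell, 1 rose and 4 did not pass (median -2.71). The exception was Aqp8, a water channel named after its value was seen, at 2.00 (SE 0.43), at 2.76 without both dim arrays and at 3.19 without the 4 arrays that stood apart. Lactoferrin (Ltf), a classic oestrogen-induced secretion, ranged from 8.59 to 14.92 with a median of 14.83 on the non-pregnant arrays and from 7.70 to 13.30 with a median of 8.00 at day 6. Non-pregnant replicate 6 was the lowest of its group and lay below day 6 replicates 3 and 5, and day 6 replicate 5 was the highest of its own. Lcn2, an iron-binding secretion, ranged from 6.95 to 14.99 with a median of 14.52 and from 5.78 to 13.45 with a median of 7.11, and its non-pregnant replicate 6 lay below day 6 replicates 2, 3 and 5. Sprr2f, a small proline-rich protein, ranged from 6.37 to 14.08 with a median of 12.34 and from 4.84 to 12.12 with a median of 5.34, and its day 6 replicate 5 lay above non-pregnant replicates 2, 3 and 6. Ltf differed by -4.67 (SE 0.89, adjusted p = 0.000104), Lcn2 by -5.40 (SE 1.26, adjusted p = 0.000955) and Sprr2f by -5.24 (SE 1.13, adjusted p = 0.00044). Without those 2 arrays the differences were -6.55, -7.79 and -7.44 and the list median -3.55. Without non-pregnant replicate 6 alone they were -5.71, -6.70 and -6.29, and without day 6 replicate 5 alone -5.50, -6.50 and -6.38. The mucin Muc1, a barrier to attachment, was at -3.38 (SE 0.62), at -4.55 without both arrays and at -4.06 without non-pregnant replicate 6 alone. The list mean ran from 1.18 to 2.03 on 5 non-pregnant arrays and stood at -0.97 on replicate 6. At day 6 it ran from -2.02 to -1.13 on 5 arrays and stood at 0.41 on replicate 5. The part that the cycle stage of the mice played was not tested, since no source used here gives it.

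Genes of ion and water transport were also more often lower, 12 of 27 fallen, 4 risen and 11 not passing (median -0.74). Clca1, a secreted regulator of chloride channels, was at -5.26 (SE 1.23) and Fxyd4, a regulator of the sodium pump, at -4.27 (SE 0.54), and without non-pregnant replicate 6 and day 6 replicate 5 the values were -7.69 and -5.13. Clca1 was at -6.61 without non-pregnant replicate 6 alone and at -6.33 without day 6 replicate 5 alone. Scnn1b, a subunit of the epithelial sodium channel, was at -2.24 (SE 0.35). Arg1, arginase 1, followed the same 2 arrays, at 5.83 to 13.21 with a median of 11.13 and at 4.52 to 9.86 with a median of 4.60, with a difference of -5.02 (SE 1.11, adjusted p = 0.000537) and of -6.84 without them. It was -5.96 without the first alone and -5.89 without the second alone.

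Gland genes were split, 4 of 17 risen, 7 fallen and 6 not passing (median -0.29). The implantation serine proteases Prss29 and Prss28 and the protease inhibitor Spink1 were among the largest rises of the whole comparison. Prss29 ranged from 4.25 to 12.23 with a median of 5.05 on the non-pregnant arrays and from 13.81 to 14.58 with a median of 14.15 at day 6, a difference of 7.93 (SE 0.77, adjusted p = 1.06e-09). Spink1 ranged from 4.34 to 13.88 with a median of 4.68 and from 13.64 to 14.18 with a median of 13.91, so that its groups overlapped. The high non-pregnant value was that of replicate 6 in both genes and in Prss28. Without that array the differences were 9.14 for Prss29, 8.47 for Prss28 and 8.61 for Spink1, against 7.41 for Prss28 and 7.17 for Spink1 with it. Without day 6 replicate 4, where Prss28 lay at 9.96 against 13.13 to 13.95, its difference was 8.04. Calb2, a calcium-binding protein, was undetected on every non-pregnant array and at least 2.01-fold higher, while the chemokine Cxcl15 was undetected on every day 6 array and at least 2.24-fold lower.

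**Figure D4:**
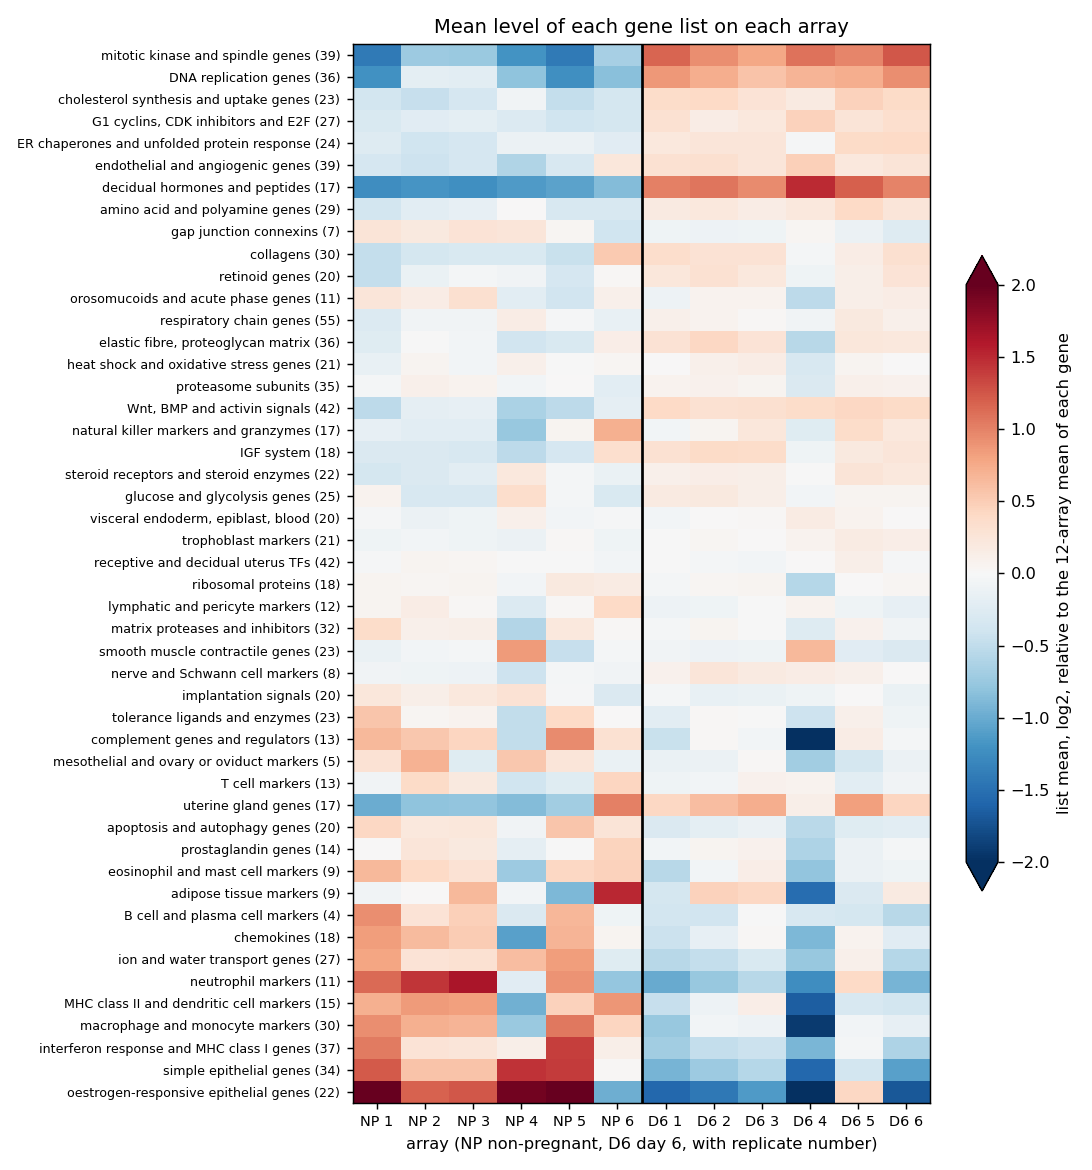
Mean level of each gene list on each of the 12 arrays (colour, log2, relative to the mean of each gene over the 12 arrays and cut at 2), with the number of measured members in brackets and lists ordered by median difference. The mitotic row changes colour at the line between groups without exception, non-pregnant replicate 6 departs from its group on the oestrogen and gland rows, and both replicates 4 are low on the macrophage, MHC class II and chemokine rows.

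Of 37 interferon response and MHC class I genes 29 fell, none rose and 8 did not pass (median -1.13), and 22 fell with median scaling. Oas2, a sensor of double-stranded RNA, ranged from 8.62 to 10.70 with a median of 9.87 on the non-pregnant arrays and from 7.09 to 8.74 with a median of 7.42 at day 6, a difference of -2.19 (SE 0.34, adjusted p = 5.83e-06). Oasl2 was at -2.04 (SE 0.29), Usp18, which removes ISG15 from proteins, at -1.87 (SE 0.31), and H2-K1, an MHC class I chain, at -1.73 (SE 0.24). Non-pregnant replicates 1 and 5 had the highest list means, 1.04 and 1.38, against 0.11 to 0.28 on the other 4 and -0.91 to -0.04 at day 6, so the groups did not overlap. Without the 4 arrays that stood apart, 29 of 36 fell.

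Interferon-stimulated promoters often carry an interferon-stimulated response element (ISRE). Written as GAAA, any 2 bases and GAAA again on either strand, it was found in 14 of the 28 list genes with a window (50%), against 3.71% of the tested genes and 3.99% of all genes with one. The windows of Oas1g, another sensor of double-stranded RNA, and of Isg15, a ubiquitin-like modifier, are shown as the named members with an ISRE and the largest differences, -1.67 and -1.21. Capitals mark ISRE matches on the strand shown, 5′ to 3′, and neighbouring matches overlap.
Oas1g, chr5:120887564-120887863, minus strand: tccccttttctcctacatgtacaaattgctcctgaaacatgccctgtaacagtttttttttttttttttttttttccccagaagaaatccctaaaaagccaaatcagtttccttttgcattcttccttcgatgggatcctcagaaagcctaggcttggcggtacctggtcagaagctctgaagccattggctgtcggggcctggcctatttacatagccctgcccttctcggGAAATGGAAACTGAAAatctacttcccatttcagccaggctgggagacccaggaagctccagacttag
Isg15, chr4:156200769-156201068, minus strand: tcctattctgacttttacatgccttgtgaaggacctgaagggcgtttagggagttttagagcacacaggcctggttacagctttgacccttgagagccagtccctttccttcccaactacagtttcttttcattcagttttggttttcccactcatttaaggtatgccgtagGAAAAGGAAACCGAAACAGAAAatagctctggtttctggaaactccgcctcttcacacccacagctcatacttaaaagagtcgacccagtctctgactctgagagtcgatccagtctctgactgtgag
The ISRE matches begin at positions -18 and -12 from the start of Oas1g, and at -78, -72 and -66 from that of Isg15.

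Markers of macrophages and monocytes fell in 19 of 30 cases, rose in none and did not pass in 11 (median -1.05). Cd14, a co-receptor for endotoxin, ranged from 8.39 to 11.27 with a median of 9.78 and from 5.15 to 8.13 with a median of 7.68, a difference of -2.43 (SE 0.38, adjusted p = 6.61e-06). Adgre1, a surface receptor of mouse macrophages, was at -1.33 (SE 0.33). Of 15 MHC class II and dendritic cell genes 11 fell, 1 rose and 3 did not pass (median -0.90). Cd74, the class II invariant chain, ranged from 10.15 to 12.79 with a median of 12.40 and from 6.28 to 11.59 with a median of 10.90. Its difference of -1.79 (SE 0.57, adjusted p = 0.0136) went to -0.98 without day 6 replicate 4. It did not pass with median scaling or in the fit of only the 2 groups compared. Both dim arrays were low on these lists. The macrophage list mean ran from 0.42 to 1.05 on 5 non-pregnant arrays and stood at -0.75 on replicate 4. At day 6 it ran from -0.75 to -0.05 on 5 arrays and stood at -1.92 on replicate 4. Without both arrays 24 macrophage and 13 class II genes fell, and with median scaling 11 and 6 did.

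Of 13 T cell markers 2 rose, 4 fell and 7 did not pass (median -0.25), so that 6 of 13 passed against 38.8% of all genes. Foxp3, the regulatory T cell factor, ranged from 8.48 to 9.30 with a median of 9.03 and from 8.77 to 9.38 with a median of 8.93. The 2 that rose were Thy1, also made by stromal cells, at 0.82 (SE 0.26) and Cd8b1 at 0.98 (SE 0.14), whose second probe gave the opposite sign, at -0.85. The call on Thy1 was lost without non-pregnant replicate 1, at 0.63, and without both dim arrays, at 0.64. It was also lost with median scaling and in the fit of only the 2 groups compared. The T cell receptor chain Cd3d was at -0.90 (SE 0.25), a call lost in the fit of only the 2 groups compared. Of the other defining markers of T cells, Cd3g was at -0.63 (adjusted p = 0.0468). Cd3e, at -0.15 (adjusted p = 0.640), did not pass. Without both dim arrays 7 fell, and 2 fell without non-pregnant replicate 6 and day 6 replicate 5. Of 17 natural killer markers and granzymes 2 rose, 3 fell and 12 did not pass (median 0.11), a smaller share than the 38.8% of all genes that passed. Under median scaling 2 rose and 1 fell. Gzmd, a granzyme of uterine natural killer cells, ranged from 4.66 to 6.66 with a median of 5.27 and from 7.96 to 9.78 with a median of 8.66, a difference of 3.47 (SE 0.27, adjusted p = 6.69e-12), while the pore protein Prf1 differed by -0.24 (SE 0.23, adjusted p = 0.444). Il15, the cytokine that natural killer cells need, was higher by 1.18 (SE 0.23), and Il18r1, a receptor chain for interleukin 18, was undetected on every day 6 array and at least 2.07-fold lower. Granzymes share sequence, so Gzmd may hold signal of relatives. Of 18 chemokines 1 rose, 7 fell and 10 did not pass (median -0.70). With median scaling 4 fell, and without the 4 arrays that stood apart 11 did. Cxcl16, a scavenger and attractant of T cells, was at -2.31 (SE 0.32). The one that rose was Cxcl14, at 2.36 (SE 0.36).

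Most measured markers of the embryo were undetected at day 6. Of 21 trophoblast markers 4 rose, 2 fell and 15 did not pass (3 and 1 with median scaling), and 12 of the 21 were undetected on all 12 arrays. Over all genes 38.8% passed. The rising members with the largest differences were Gata3 at 2.72 (SE 0.21) and Tfap2c at 2.22 (SE 0.34), transcription factors that are not restricted to trophoblast. The others were Tfpi, a coagulation inhibitor, at 0.87 (SE 0.19) and Plac1, a placental protein undetected on the non-pregnant arrays, at an adjusted p of 0.00516. Plet1, at -2.10 (SE 0.41), and Plac8, at -0.72 (SE 0.17), fell. The call on Plac1 was lost without background correction, at 0.17, and from the series matrix, at 0.16. That on Tfpi was lost with median scaling, and that on Plac8 with median scaling and with array weights. Tfap2c was at 1.62 without both dim arrays. Prl4a1 and Rhox6, defining trophoblast markers, were undetected on all 12 arrays, as were Afp and Apoa1 of visceral endoderm and Hba-x and Hbb-y of embryonic blood. Amn, the third visceral endoderm marker and a receptor chain also made by other epithelia, was detected on 2 non-pregnant and all 6 day 6 arrays and was higher by 0.67 (SE 0.21, adjusted p = 0.0118). Its call was lost without background correction, in the series matrix values and in the fit of only the 2 groups compared. Pou5f1, a marker of epiblast, was detected on 1 non-pregnant and 3 day 6 arrays, and its difference of 0.24 (adjusted p = 0.431) did not pass. Prl3d1 and Tpbpa of trophoblast and Nanog of epiblast were not analysed here.

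Against day 4, 1129 genes (10.8%) changed, 545 (5.23%) higher and 584 (5.61%) lower at day 6. At day 8 against day 6, 636 genes (6.11%) changed, 407 (3.91%) higher and 229 (2.2%) lower at day 8. These splits depended on the scaling. With median scaling the counts were 393 and 711 against day 4, where the median difference of all genes was then -0.16, and 416 and 110 at day 8. The comparisons share the day 6 arrays, so their values are given side by side. Prl8a2 was higher than at day 4 by 6.65 (SE 0.21, adjusted p = 3.18e-21) and higher again at day 8 by 2.50 (SE 0.21, adjusted p = 8.54e-11), and Rrm2 by 4.72 (SE 0.20, adjusted p = 3.73e-18) and 2.05 (SE 0.20, adjusted p = 2.18e-09). Wnt6 was higher than at day 4 by 5.44 (SE 0.25, adjusted p = 4.29e-17) and differed from day 8 by -0.39 (SE 0.25, adjusted p = 0.303), which did not pass. Sct was higher by 7.19 (SE 0.34, adjusted p = 7.13e-17) and then lower by day 8, at -1.80 (SE 0.34, adjusted p = 0.00023). The mitotic list was higher than at day 4 in 38 of 39 genes, against 13.1% of all genes, and lower at day 8 in 5, against 10.2% of all genes. Genes passing the adjusted p were 25.7% of all against day 4 and 20.3% at day 8. The cholesterol list passed in 3 of 23 against day 4, all higher, and the list of endoplasmic reticulum genes in 3 of 24, all higher. The latter was higher at day 8 than at day 6 in 11 of 24, against 10.1% of all genes. Simple epithelial genes were lower than at day 4 in 27 of 34 cases, against 12.6% of all genes.

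A few genes were set apart at day 6, meaning that they changed in the same direction against each of the other 6 groups. There were 19 such genes upward (0.182%) and 10 downward (0.096%). Spaca7, known as a sperm acrosome protein, had the largest gap upward: its group mean was 8.89 at day 6 against 6.14 at day 8 and 4.42 to 5.01 in the other 5 groups. Hamp, the iron hormone hepcidin, stood at 6.72 against 4.46 to 4.67 elsewhere, and ranged from 5.88 to 8.10 with a median of 6.54 at day 6 with no detection on a non-pregnant array. Arc, an activity-regulated gene of neurons, stood at 6.60 against 4.48 to 4.96. Plekhg4, a guanine exchange factor, Dgkk, a diacylglycerol kinase, and Crygs, a lens crystallin, were undetected on every non-pregnant array and at least 13.6-fold, 7.07-fold and 3.55-fold higher. Stra6 and Col22a1, described above, complete the 8 with the widest gaps upward.

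The genes set apart downward had their lowest group mean at day 6. Il17rb, a receptor for interleukin 25, ranged from 6.87 to 7.97 with a median of 7.63 on the non-pregnant arrays and from 4.26 to 6.19 with a median of 5.53 at day 6, a difference of -2.15 (SE 0.35, adjusted p = 1.25e-05), and differed from day 4 by -3.55 (SE 0.39, adjusted p = 2.94e-08). Ampd3, an AMP deaminase, was lower than in non-pregnant uterus by 1.34 and rose by 2.86 (SE 0.32, adjusted p = 5.55e-08) at day 8. Htra1, a secreted serine protease, stood at 9.46 at day 6 and 13.96 at day 10, and did not pass against non-pregnant uterus with median scaling. Slpi, an inhibitor of leukocyte proteases, was at -1.91 (SE 0.31) against non-pregnant uterus, Avil, an actin-binding protein, at -1.20 (SE 0.35), and Isg15 at -1.21 (SE 0.35). The call on Isg15 was lost in the fit of only the 2 groups compared. Without day 6 replicate 4, 6 of the 10 downward genes were still set apart, and without background correction 2 of them and 8 of the 19 upward genes were.

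**Figure D5:**
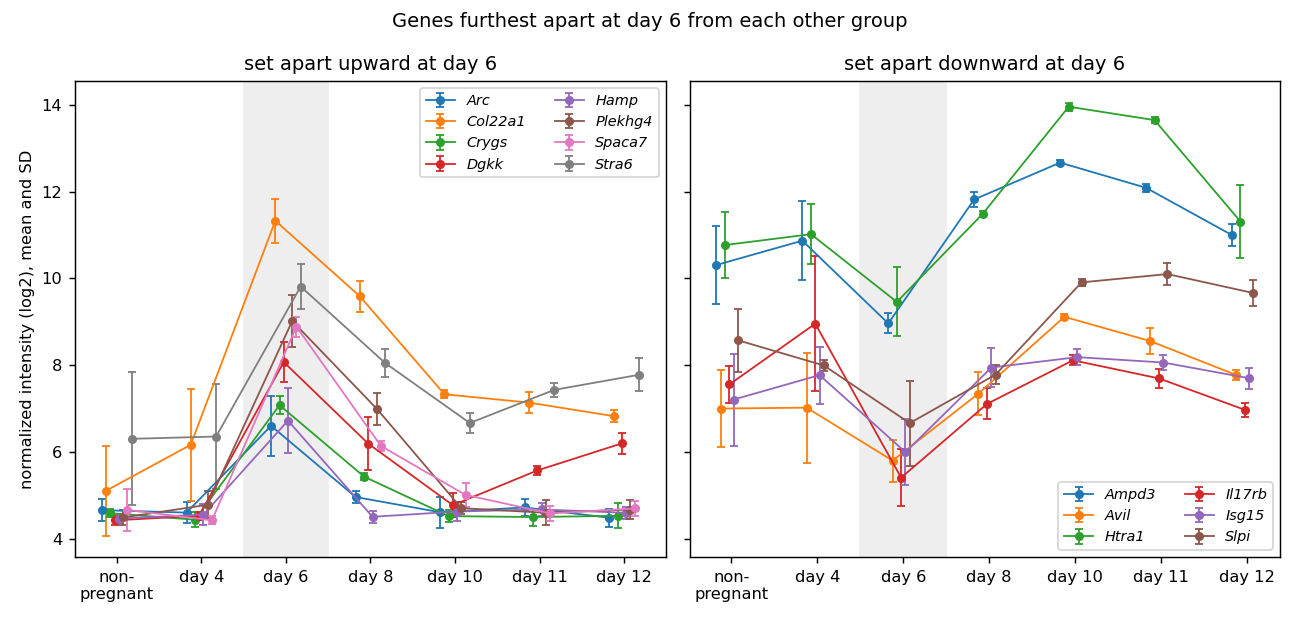
Group means with standard deviations (y axis, normalized intensity in log2) in the 7 groups (x axis) for the 8 genes set apart upward and the 6 set apart downward at day 6 with the widest gaps. The upward genes peak in the shaded day 6 column, with Spaca7 at 8.89 there and 6.14 at day 8, and the downward genes dip there and rise again, Htra1 to 13.96 at day 10.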

How the data were processed

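Total RNA of 33 uterus samples was hybridised to single-colour Illumina mouse bead arrays, per the labels. The deposited table holds raw intensities, with no normalization stated in the file headers, and a detection p-value for each probe and array as deposited. The scanner software and its version are not given in the sources used here. A series matrix deposited by the authors holds log2 values of 16712 of the 45281 probes. Its normalization is not stated, its array numbers differ from those of the raw table for 16 of the 33 arrays, and it served only as an alternative.

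Intensities were background-corrected with nec of limma 3.58.1 from the detection p-values (offset 16), quantile normalized on the log2 scale and kept where the detection p was under 0.01 on at least 4 of the 33 arrays. Probes with exactly 1 gene symbol were named through GEO's platform annotation, and each gene took its probe with the highest mean, which left 10412 genes. Of 1148 further probes that passed in genes that passed, 10 had the opposite sign. One mean per group was fitted over all 33 arrays with lmFit and eBayes in R 4.3.3, with 26 residual degrees of freedom, and p-values were adjusted by Benjamini-Hochberg over all genes tested. A gene undetected on every array of a group has only a bound there, so it is given as at least N-fold, against the lowest detected signal of each array. Pairs of arrays were compared for duplicates. Non-pregnant replicates 2 and 3 were the closest, with a median absolute difference of 0.0992 over 4306 bright probes. The next pair, day 6 replicates 1 and 2, was at 0.125. The next pair within the non-pregnant group, replicates 1 and 5, was at 0.203. Non-pregnant replicates 2 and 3 were kept as separate samples, and whether they are duplicates is not known.

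The members and gene lists were chosen with earlier results of these data known. Named genes were the 12 largest rises and falls without overlap, the 8 and 6 genes set apart with the widest gaps, up to 6 members of each list with the largest differences and up to 3 with the smallest, and fixed landmark genes. Not every gene that met this rule is described, and the landmarks H2-Aa and Aldh1a2 are among those left out. On simulated data of 10412 genes, 89 of 100 genes with a 2-fold change and 98 of 100 with a 4-fold change passed, and 5 of 10212 unchanged genes did. Under the rule for changed genes, with its 2-fold minimum, 44, 98 and 0 of them were called in the same order. Alternatives changed the background correction, normalization, filter, probe choice, fold, variance prior, array weights, samples in the fit, replicate block and arrays left out. Averaging the closest pair and leaving out all 4 arrays that stood apart were added after seeing the data. The replicate numbers were not used as pairs, since the same-numbered arrays of the 2 groups had correlations of -0.05 to 0.43. Sequences came from RefSeq tables on GRCm38.p6, read with Python 3.11.15. Figures were drawn with matplotlib 3.10.9.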

Additional observations from a re-analysis of the deposited data

Results flagged for a closer look

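An array is named here where its gap to the nearest other array of its group as a share of the range of its group exceeded Dixon's 95% critical value, a size that chance gives in about 1 in 20 groups of 6. Of 336 groups of named gene levels 61 met it, and of 96 groups of list means 23. Such arrays are counted in all values above unless stated otherwise. Values below are log2 levels of genes, or list means relative to the mean of each gene over the 12 arrays.

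Non-pregnant replicate 6 lay above its group for Col22a1 (7.17), Cyp26a1 (8.82), Dlk1 (5.61), Fst (9.38), Notch4 (9.51), Npy (6.49), Prss28 (10.84), Prss29 (12.23), Sct (6.14), Spaca7 (5.62) and Tac2 (6.83). It lay below its group for Apoa1 (4.33), Clca1 (4.86), Gjb2 (6.27), Lcn2 (6.95), Ltf (8.59), Muc1 (7.50), Sox7 (8.04) and Wnt4 (5.38). High list means there were those of uterine gland genes (1.01), collagens (0.52), IGF system (0.33) and endothelial and angiogenic genes (0.23). Low list means there were those of oestrogen-responsive epithelial genes (-0.97) and gap junction connexins (-0.40).

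Day 6 replicate 5 lay above its group for Arg1 (9.87), Clca1 (11.74), Isg15 (7.45), Lcn2 (13.45), Muc1 (9.98), Plet1 (5.51), Spaca7 (9.34) and Sprr2f (12.12). High list means there were those of oestrogen-responsive epithelial genes (0.41).

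On non-pregnant replicate 4, 13097 probes were detected, against 17410 to 18152 on the other 5 arrays of its group. Non-pregnant replicate 4 lay above its group for Ampd3 (12.15), Angpt4 (6.88), Prl3c1 (5.90) and Prl8a2 (5.80). It lay below its group for Cd74 (10.15), Mcm7 (5.01) and Pdpn (9.77). High list means there were those of smooth muscle contractile genes (0.86) and cholesterol synthesis and uptake genes (-0.0735). Low list means there were those of matrix proteases and inhibitors (-0.59), macrophage and monocyte markers (-0.75), MHC class II and dendritic cell markers (-0.97), eosinophil and mast cell markers (-0.72) and nerve and Schwann cell markers (-0.41).

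On day 6 replicate 4, 13149 probes were detected, against 16561 to 17491 on the other 5 arrays of its group. Day 6 replicate 4 lay above its group for Amn (6.77), Arc (7.91), Ass1 (12.88), Col22a1 (12.28), Cxcl14 (12.71), Des (14.54), Gja1 (14.63), Notch4 (11.53), Sct (14.08) and Tnnc1 (11.62). It lay below its group for Aqp8 (5.65), Cd14 (5.15), Cd274 (4.37), Cd74 (6.28), Cdk1 (8.64), Cp (4.48), Cycs (10.12), Gsto1 (8.23), Htra1 (7.89), Igfbp2 (6.62), Prss28 (9.96) and Slpi (4.75). High list means there were those of smooth muscle contractile genes (0.65). Low list means there were those of prostaglandin genes (-0.62), elastic fibre, proteoglycan and glycoprotein matrix genes (-0.55), macrophage and monocyte markers (-1.92), MHC class II and dendritic cell markers (-1.66), complement genes and regulators (-2.01), ribosomal proteins (-0.57), proteasome subunits (-0.29) and heat shock and oxidative stress genes (-0.32).

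On the remaining arrays this held for single genes, Crygs on non-pregnant replicate 5 (4.42), Dgkk on non-pregnant replicate 1 (4.59), Hba-x on non-pregnant replicate 1 (4.96), Hba-x on day 6 replicate 6 (4.56) and Sfrp5 on non-pregnant replicate 5 (4.74), most of them at levels near background.

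Probes without exactly 1 usable gene symbol were outside the comparison. Of 5912 detected ones 460 changed at day 6, 209 higher and 251 lower, and they are not named here.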

How the results depend on the processing

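Of the counts of genes, those without background correction, from the series matrix and at other fold minimums lay furthest from the reported ones. For day 6 against non-pregnant uterus (1337 genes) they were 582 without background correction, 575 from the series matrix, 2723 at 1.5-fold and 319 at 4-fold. Against day 4 (1129) they were 512, 508, 2123 and 310 in the same order, and at day 8 against day 6 (636) they were 260, 256, 1576 and 109. For genes set apart (29) they were 12, 12, 63 and 3. The cause was not tested, beyond the fold minimums themselves. Leaving out 1 array at a time gave 1195 to 1488 genes against non-pregnant uterus, lowest without non-pregnant replicate 1 and highest without replicate 6, 1089 to 1181 against day 4, 613 to 678 at day 8, and 28 to 34 set apart. Without non-pregnant replicate 6 and day 6 replicate 5 the main count was 1505, without both dim arrays 1357, and with the closest pair averaged 1373. Fitting only the 2 groups gave 1205. Among named genes that fit lost the calls on Amn, Cd274, Cd3d, Cd74, Cyp26a1, Hoxa10, Isg15, Lif, Npr3 and Thy1. The setting for set-apart genes with only the groups compared could not be run, because it needs all groups.

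The replicate numbers were not taken as pairs, since not every pair of same-numbered arrays correlated above 0.1. The correlations of same-numbered arrays were -0.05, 0.05 and 0.01 for numbers 1 to 3 and 0.34, 0.43 and 0.26 for numbers 4 to 6, and only the last 3 correlated best with their own number. With the replicate block 1344 genes changed against non-pregnant uterus, 1135 against day 4, 692 at day 8 and 25 were set apart.

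Of the values of named genes under these settings, 4463 kept direction and side of the threshold, 48 lost their call, 13 gained one and 0 reversed. Of the counts of genes risen or fallen in the lists, 521 stayed within 1.5 times of the reported count over the 7 settings tried for them and 81 did not. The number of arrays, the unknown dissection and probes near background limit what small differences can show, and the p-values cover the spread between these samples only.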

Other observations

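Of 20 apoptosis and autophagy genes 9 fell and none rose (median -0.33), and 3 fell with median scaling. Bcl2, an inhibitor of cell death, was at -1.56 (SE 0.18, adjusted p = 3.72e-08) and Casp1, an inflammatory caspase, at -1.54 (SE 0.19, adjusted p = 1.44e-07). Nerve and Schwann cell markers had 2 risen and 2 fallen of 8 (median -0.14), against 19.9% and 18.9% of all genes. With median scaling 2 rose and 1 fell. Stmn2, a microtubule regulator of neurons, was higher by 2.64 (SE 0.19, adjusted p = 2.04e-12) and Uchl1, a ubiquitin hydrolase of neurons, by 1.91 (SE 0.19, adjusted p = 2.57e-09), while Mbp, myelin basic protein, was at -1.61 (SE 0.20, adjusted p = 1.56e-07). Among lymphatic and pericyte markers 2 of 12 rose and 3 fell (median -0.11), or 1 and 1 with median scaling, with Pdpn, podoplanin, at 1.45 (SE 0.15, adjusted p = 2.06e-09) and Anpep, an aminopeptidase, at -2.16 (SE 0.27, adjusted p = 1.35e-07). Of 9 adipose markers 2 fell and none rose (median -0.45), and of 5 mesothelial, ovary or oviduct markers 1 rose and 2 fell (median -0.25). With median scaling 1 adipose marker fell, and without the 4 arrays that stood apart 1 mesothelial, ovary or oviduct marker fell and none rose. Acute phase genes rose in 3 and fell in 2 of 11 cases (median 0.21), or in 5 and 3 without those 4 arrays, with the copper carrier Cp at -2.40 (SE 0.44, adjusted p = 5.35e-05).

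Of the leukocyte lists, neutrophil markers fell in 6 of 11 cases and rose in 1 (median -0.83), eosinophil and mast cell markers fell in 4 of 9 (median -0.43) and B cell markers in 2 of 4 (median -0.61). Without the 4 arrays that stood apart 2 eosinophil and mast cell markers fell and 1 rose, and 4 B cell markers fell. Ltf and Lcn2 are on the neutrophil list and on the oestrogen list. Complement genes fell in 6 of 13 cases (median -0.24), and in 2 with median scaling. Of 23 tolerance ligands and enzymes 9 fell and 4 rose (median -0.20), and 6 and 1 with median scaling. Cd274, the checkpoint ligand PD-L1, was at -1.11 (SE 0.28, adjusted p = 0.00208). Its call was lost in the fit of only the 2 groups compared (adjusted p = 0.0646).

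For the lists below, the shares over all genes were 19.9% upward and 18.9% downward. Ribosomal proteins had 1 risen and 3 fallen of 18 (median -0.10) and proteasome subunits 4 and 5 of 35 (median 0.14), and with median scaling 1 fell of the first and 1 of the second, with 0 and 1 risen. Without both dim arrays 11 proteasome subunits rose. Psmb9, an interferon-induced proteasome subunit, was at -1.05 (SE 0.15, adjusted p = 1.1e-06). Respiratory chain genes had 16 risen and 4 fallen of 55 (median 0.16), and 5 risen and 1 fallen with median scaling. Cycs, cytochrome c, was higher by 1.03 (SE 0.17, adjusted p = 9.56e-06). Heat shock and oxidative stress genes had 4 risen and 5 fallen of 21 (median 0.15), and 3 and 1 with median scaling, with Gsto1, a glutathione transferase, at -2.31 (SE 0.39, adjusted p = 1.95e-05). Visceral endoderm, epiblast and embryonic blood markers had 1 risen and 1 fallen of 20 (median -0.02), none of either without background correction, and 11 of the 20 were undetected on all 12 arrays. The adult globins on the lists were not measured here.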
